A study of Mus musculus with 25 samples.

Results

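KLF4 HiChIP of fibroblasts on day 3 of reprogramming was set against KLF4 HiChIP of embryonic stem (ES) cells. These were 7 of the series' 25 libraries, 3 from day 3 and 4 from ES, chosen by their labelled stage and antibody. An interaction was a pair of 10 kb bins on the same chromosome in the authors' high-confidence list. The day 3 list held 23720 interactions and the ES list 24589, of the 912901 entries in all 9 lists of the series. Together the KLF4 lists named 40922 different interactions, of which 7387 were in both, 16333 in the day 3 list alone and 17202 in the ES list alone.

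KLF4 is a zinc-finger transcription factor of the KLF/SP family that binds GC-rich and CACCC-type motifs. It is 1 of the factors of the OKSM cocktail (Oct4, Klf4, Sox2 and c-Myc), which converts fibroblasts to pluripotent cells, and in ES cells it acts beside KLF2 and KLF5 to keep the naive state. HiChIP joins DNA ends that lie close together in fixed nuclei and then enriches the joined fragments with an antibody. A KLF4 interaction is therefore a contact between a pair of bins, at least 1 of which was recovered with KLF4.

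The day 3 cells were embryonic mouse fibroblasts (MEFs) of E13.5, heterozygous for an Oct4-GFP reporter, the OKSM cassette and rtTA3, collected unsorted after 3 days of doxycycline with ascorbic acid. The series design writes the genotype as Rosa26-M2rtTA/Col1a1-OKSM. Doxycycline acts through rtTA to switch on the cassette, so day 3 KLF4 came at least in part from the transgene. The ES cells were the V6.5 line in 2i medium, with no cassette or doxycycline named in the labels. Cell source, medium, doxycycline, ascorbic acid and transgene differed together between the groups and cannot be told apart. The labels name no separate embryos, cultures or lines behind the replicates, so p-values measure the spread between these libraries, which may be technical. Contact lists hold no expression, and the cell types were not checked by markers.

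Depth ranged from 54.4 to 181 M contacts at day 3 and from 51.9 to 102 M in ES, and the median listed interaction held 14 to 40 counts per library. ES replicates 1 and 2 differed by no more than sampling noise (chi-square per degree of freedom 1.01, p = 0.239), as did replicates 3 and 4 (0.966, p = 0.989). The 2 pairs differed from each other (1.25 to 1.503), so the ES libraries were counted as 2 samples. Day 3 replicates differed (1.07 to 1.09) and were counted as 3 samples. In bulk contact data, a contact made in fewer cells and one made less often in every cell cannot be told apart.

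Several named interactions had an anchor at a gene start, and the promoters of 3 of these genes are printed first. RefSeq's promoter table (build GRCm38.p6, the same assembly as mm10) gives 250 bases before to 50 bases after each start, 5′ to 3′ on the gene's strand. Capitals mark matches to GGGNGTG, a core of the KLF motif, or to its reverse complement CACNCCC. Akap7 (chr10:25297030-25297329, minus strand) started in an anchor of an interaction that fell in ES. Klf9 (chr19:23140976-23141275, plus strand) lost listed interactions, and Pou5f1 (chr17:35505782-35506081, plus strand) gained them.
Akap7: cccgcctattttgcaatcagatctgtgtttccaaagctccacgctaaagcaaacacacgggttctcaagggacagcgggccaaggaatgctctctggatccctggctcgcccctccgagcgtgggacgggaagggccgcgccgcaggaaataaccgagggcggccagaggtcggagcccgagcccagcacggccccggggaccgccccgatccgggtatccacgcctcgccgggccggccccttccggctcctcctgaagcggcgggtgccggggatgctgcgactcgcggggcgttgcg
Klf9: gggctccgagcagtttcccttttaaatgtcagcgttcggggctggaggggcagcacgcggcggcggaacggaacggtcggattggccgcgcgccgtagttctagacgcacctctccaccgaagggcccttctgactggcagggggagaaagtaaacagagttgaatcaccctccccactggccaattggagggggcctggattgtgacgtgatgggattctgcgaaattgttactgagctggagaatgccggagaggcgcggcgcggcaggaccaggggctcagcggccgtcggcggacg
Pou5f1: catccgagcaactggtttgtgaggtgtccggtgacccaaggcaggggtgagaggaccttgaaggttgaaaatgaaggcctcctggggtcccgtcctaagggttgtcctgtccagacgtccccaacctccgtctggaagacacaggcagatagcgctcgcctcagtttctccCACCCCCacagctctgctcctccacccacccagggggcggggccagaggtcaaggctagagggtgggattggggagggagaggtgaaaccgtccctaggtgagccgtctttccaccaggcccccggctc
The Pou5f1 window held 1 match, and the Akap7 and Klf9 windows held 0. Over all 32851 promoters of the table, 29.2% (95% Wilson interval 28.7 to 29.6) held a match. The share was 25.7% (25.1 to 26.3) for promoters in anchors of neither list and 30.03% (28.2 to 31.9) for anchors of the day 3 list alone. It was 36.1% (34.6 to 37.5) for anchors of the ES list alone and 37.1% (35.8 to 38.4) for anchors of both lists. A match is a description of these letters, not a binding site.

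The largest increase in ES among calls whose libraries did not overlap lay at the start of the Mir290a cluster, microRNAs that are abundant in pluripotent mouse cells. Mature sequences of 3 of its 3′ arms are printed from RefSeq (GRCm38.p6), with hairpins on the plus strand in the anchor at 3210001 to 3220000 on chromosome 7, and mmu-miR-292a-3p is named only. Capitals mark the seed, bases 2 to 8.
mmu-miR-290a-3p: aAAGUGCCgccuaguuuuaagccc
mmu-miR-291a-3p: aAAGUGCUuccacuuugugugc
mmu-miR-291b-3p: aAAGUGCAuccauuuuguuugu
These 3 seeds have their first 6 bases, AAGUGC, in common and differ at the last base.

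The lists shared fewer interactions than anchors. Of the day 3 interactions, 31.1% (95% Wilson interval 30.6 to 31.7) had the same pair of bins in the ES list, and of the ES interactions 30.04% were in the day 3 list. Bins used as an anchor numbered 23624 at day 3 and 25332 in ES. Of these, 11681 were anchors in both lists, 49.4% of the day 3 bins and 46.1% of the ES bins. When each anchor could lie 1 bin away, 49.9% of day 3 interactions had a partner in ES. Intervals cover counting error only, since PCR copies are not independent molecules. A contact missing from a list is one that did not pass the authors' filters and may still have counts.

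Interactions of the day 3 list alone spanned 50 kb or more in a larger share than the others. The median distance was 20 kb for day 3 alone, for ES alone and for those in both. At least 50 kb lay between the anchors of 24.0% (23.4 to 24.7) of the interactions of day 3 alone. The share was 18.1% (17.5 to 18.7) for ES alone and 11.1% (10.4 to 11.8) for interactions in both lists. Adjacent bins made up 26.2% of day 3 alone, 35.4% of ES alone and 41.0% of those in both. The authors' CPM cutoff was set within each chromosome. With 1 cutoff in contacts per library, 4.83% of day 3 alone, 1.57% of ES alone and 1.18% of shared interactions spanned 50 kb or more, in the same order.

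**Figure D1:**
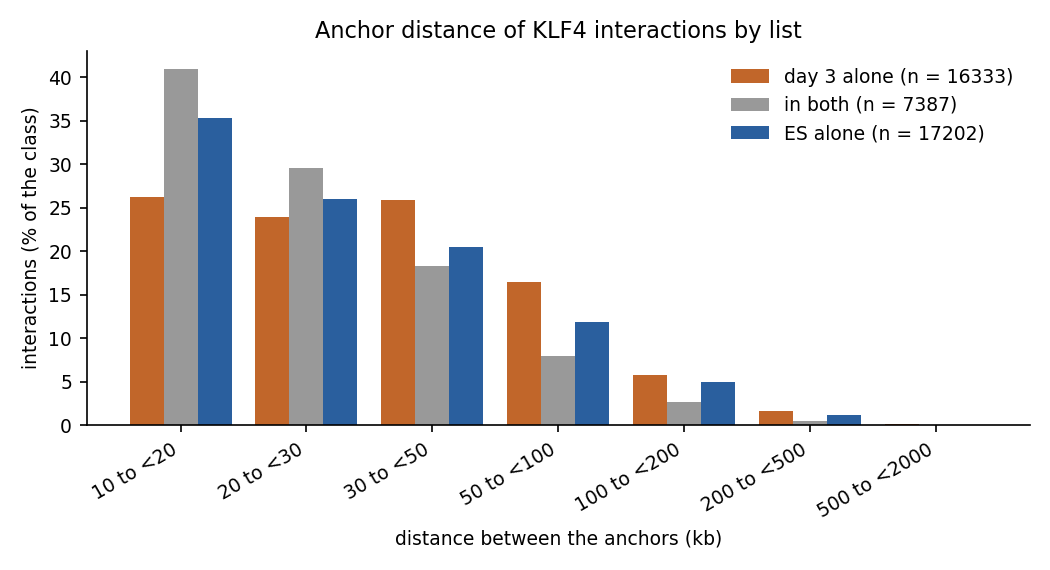
Distance between the anchors (kb, x axis) against the percentage of interactions (y axis) for interactions of the day 3 list alone, of both lists and of the ES list alone. Adjacent bins, 10 to under 20 kb apart, made up 26.2% of day 3 alone, 41.0% of those in both lists and 35.4% of ES alone, and from 30 kb upwards the day 3 bars are the highest.

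The same direction was seen in the counts of the 7387 shared interactions. Contacts over 50 kb or more made up 7.26, 6.94 and 6.81% of these counts in day 3 replicates 1 to 3, and 6.56, 6.63, 6.33 and 6.47% in ES replicates 1 to 4. All 3 day 3 libraries lay above all 4 ES libraries. The means were 7.005 ± 0.234% (SD, n = 3) and 6.498 ± 0.126% (SD, n = 2). The two-sided exact permutation test gave p = 0.2, the smallest p that 3 against 2 samples allow. With the 7 libraries kept separate the same exact permutation test gave p = 0.0571, the smallest p that 3 against 4 libraries allow. That version counts ES libraries that agreed within sampling noise as separate samples.

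Among shared interactions, the quasi-likelihood test of edgeR, adjusted by Benjamini-Hochberg, called 532 of 7387, or 7.2%, at an adjusted p under 0.05. In ES, 223 (3.02% of those tested) were higher and 309 (4.18%) lower. Median log2 changes of the called interactions were 0.77 and -0.83, and 37 of the higher and 75 of the lower changed at least 2-fold. The CPM of all day 3 libraries lay on 1 side of all ES libraries for 142 of the 223 and 249 of the 309, against 14.1% of all tested interactions. Over all shared interactions the median log2 ES over day 3 CPM was -0.00 (range -0.16 to 0.22 over 6 pairs of samples). Lower calls outnumbered higher ones at longer distance. Of 3030 tested interactions between adjacent bins, 105 were higher and 76 lower, and of 820 spanning 50 kb or more, 16 were higher and 52 lower. When the interactions spanning 50 kb or more were fitted alone, 20 were higher and 36 lower. Counts of calls depended on single samples: 135 were called without day 3 replicate 3 and 243 without ES replicates 3 and 4, and DESeq2 called 64.

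**Figure D2:**
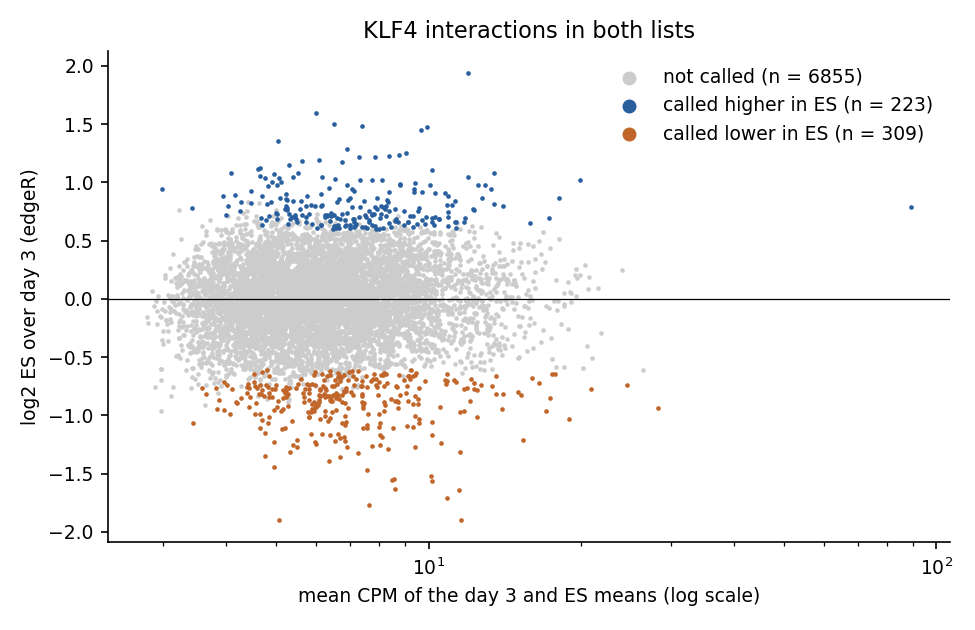
Mean CPM of the day 3 and ES means (x axis, log scale) against the edgeR log2 change, ES over day 3 (y axis), 1 point per interaction in both lists. The 223 blue points were called higher in ES and the 309 orange points lower, with calls in both directions over most of the range of strength.

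Chromosome 8 stood apart and touches several results that follow. It held 4.88, 4.94 and 4.92% of contacts in the day 3 libraries and 6.34, 6.33, 6.11 and 6.12% in the ES libraries, 1.27 times as much, whereas the ratios of the other chromosomes ranged from 0.909 to 1.07. Both H3K27ac HiChIP libraries of ES cells held 6.01 and 6.05% there, and the day 6 KLF4, MEF and TKO libraries 4.90 to 5.005%. Of 354 tested interactions on chromosome 8, 51 were higher and 6 lower. With contact totals of each chromosome as offsets, 4 were higher and 9 lower, and over all chromosomes 108 were higher and 159 lower. Without chromosome 8, an alternative chosen after seeing the data, 173 were higher and 261 lower of 7033 tested. Deposited CPM values are relative to contacts of the same chromosome, while the log2 changes below use library totals, so the 2 scales differ most on chromosome 8.

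**Figure D3:**
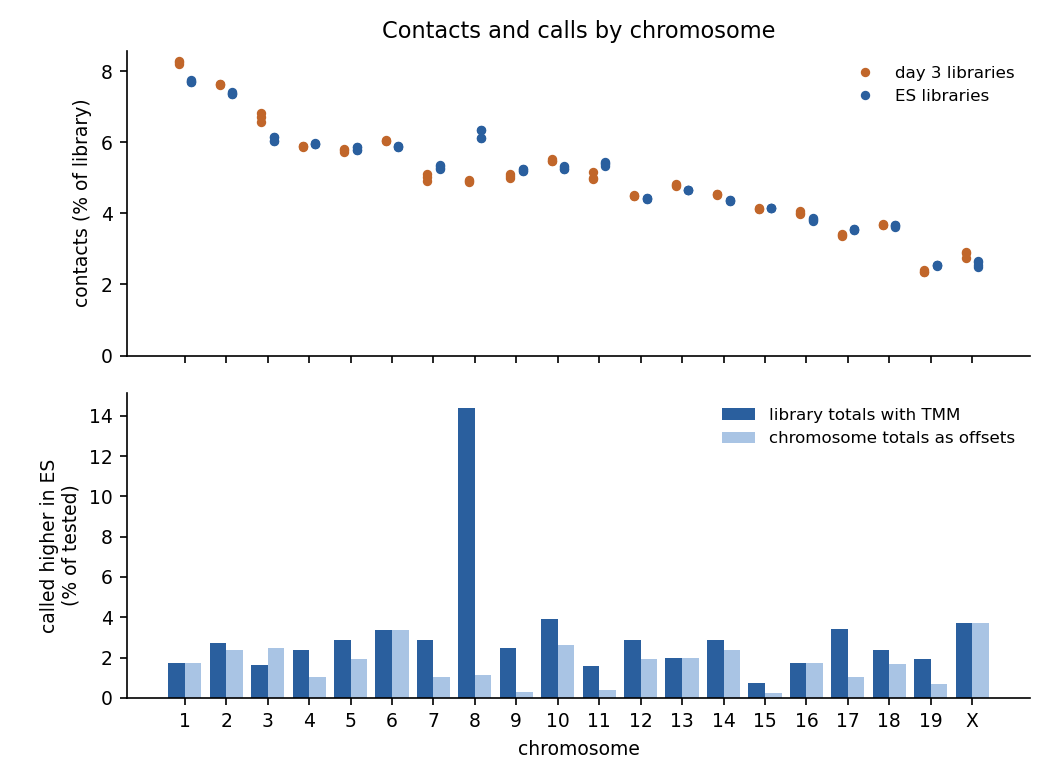
Upper panel, percentage of a library's contacts on each chromosome, 1 point per library; lower panel, percentage of tested interactions called higher in ES with library totals and TMM (dark) or chromosome totals as offsets (light). ES libraries held 6.11 to 6.34% of their contacts on chromosome 8 and day 3 libraries 4.88 to 4.94%, and the tall dark bar of chromosome 8 shrinks with chromosome offsets.

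Among calls whose libraries did not overlap, the largest increases in ES lay at the Mir290a cluster, Platr19 and Klf2. At the Mir290a cluster (bins starting at 3200001 and 3210001 on chromosome 7, 10 kb apart), CPM was 4.49, 6.05 and 4.62 in the day 3 libraries and 8.38, 11.9, 26.6 and 28.4 in ES replicates 1 to 4. The ES libraries lay above every day 3 library, but replicates 3 and 4 were more than 2-fold above replicates 1 and 2. The log2 change was 1.94 ± 0.23 (SE), with an edgeR adjusted p of 1.83e-10. DESeq2 did not call it (adjusted p = 0.102). Without ES replicates 3 and 4 the log2 change was 0.87 (edgeR adjusted p = 0.0144), below the 1.31 of the Platr19 interaction in the same fit.

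The next interaction joined bins starting at 12780001 and 12810001 on chromosome 12, the first of which the authors' gene names assign to Platr19, a noncoding RNA gene. It had 3.27, 3.45 and 2.34 CPM at day 3 and 8.56, 6.99, 10.4 and 9.95 CPM in ES, without overlap. It rose by a log2 of 1.6 ± 0.24 (edgeR adjusted p = 4.95e-07). Neither bin holds a gene of the RefSeq table, and the distal bin, 12810001 to 12820000, was itself among the bins that gained most interactions in ES.

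Klf2 encodes a KLF4 relative that is active in ES cells. Its start bin (72310001 to 72320000 on chromosome 8) met the bin at 72330001 with 5.65, 3.73 and 3.38 CPM at day 3 and 7.40, 7.62, 9.49 and 10.6 CPM in ES. All ES libraries were above all day 3 libraries. The log2 change was 1.5 ± 0.21 (edgeR adjusted p = 7.2e-08), and 1.18 with chromosome offsets (adjusted p = 0.000259).

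Of the 8 largest increases among calls whose libraries did not overlap, the remaining 5 had log2 changes from 1.22 to 1.35 and separate ranges of CPM in the 2 groups. One spanned 200 kb on chromosome 18, from 82770001, within Gm46638, to 82970001, within Zfp516. It had 3.98, 3.01 and 2.12 CPM at day 3 and 4.10, 5.32, 10.4 and 8.55 CPM in ES, and was not called without day 3 replicate 3 or without ES replicates 3 and 4 (highest edgeR adjusted p = 0.478). The others met the starts of Atad2b (chromatin-associated ATPase) and Etnk1 (ethanolamine kinase) or a start inside Slc12a7 (potassium-chloride cotransporter), or lay inside Gtf2ird1. The Atad2b call was also lost without day 3 replicate 3, without ES replicates 3 and 4 and in DESeq2 (highest adjusted p = 0.204), and the Etnk1 call without ES replicates 3 and 4 (edgeR adjusted p = 0.103).

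The largest decreases by the same rule met Dusp1, Akap7, Cxadr, Zfand3 and Myof. Dusp1 encodes a phosphatase of MAP kinases induced by growth factors and stress. From its start bin (26500001 on chromosome 17) an interaction ran 80 kb to the bin at 26580001, inside Ergic1, with 16.4, 16.3 and 13.4 CPM at day 3 and 3.88, 3.8, 6.35 and 5.56 CPM in ES. The neighbouring bin at 26510001 met the same partner with 6.57, 9.03 and 8.0 CPM at day 3 and 3.23, 3.25, 1.49 and 1.11 CPM in ES. Every day 3 library was above every ES library in both. The log2 changes were -1.56 ± 0.22 and -1.90 ± 0.29 (edgeR adjusted p = 7.2e-08 and 4.95e-07). For the bin at 26510001 the ES values rest on 10, 6, 4 and 4 counts. Listing required more than 3 CPM in replicates 1 and 2, and its ES values there lay near that limit.

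Akap7 encodes a protein that anchors protein kinase A. Its start bin (25290001 on chromosome 10) met a bin at 25270001 in the same gene with 22.9, 17.5 and 14.4 CPM at day 3. In ES the values were 4.14, 4.41, 6.46 and 4.80 CPM. The groups were far apart, at a log2 change of -1.89 ± 0.23 (edgeR adjusted p = 1.83e-10; DESeq2 adjusted p = 6.43e-08).

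Cxadr encodes a junction protein that serves as the coxsackie and adenovirus receptor. It had 19.9, 17.6 and 12.7 CPM at day 3 and 5.41, 4.06, 5.13 and 5.6 CPM in ES over 40 kb (log2 change -1.71 ± 0.22, edgeR adjusted p = 4.65e-09). Zfand3 had a log2 change of -1.77 ± 0.26, a pair near Amotl2 on chromosome 9 one of -1.64 ± 0.22, and Myof, a membrane repair protein, one of -1.56 ± 0.27. All 7 of these decreases were called in every alternative that gave an adjusted p. Under the same alternatives 4 of the 8 named increases were lost at least once.

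**Figure D4:**
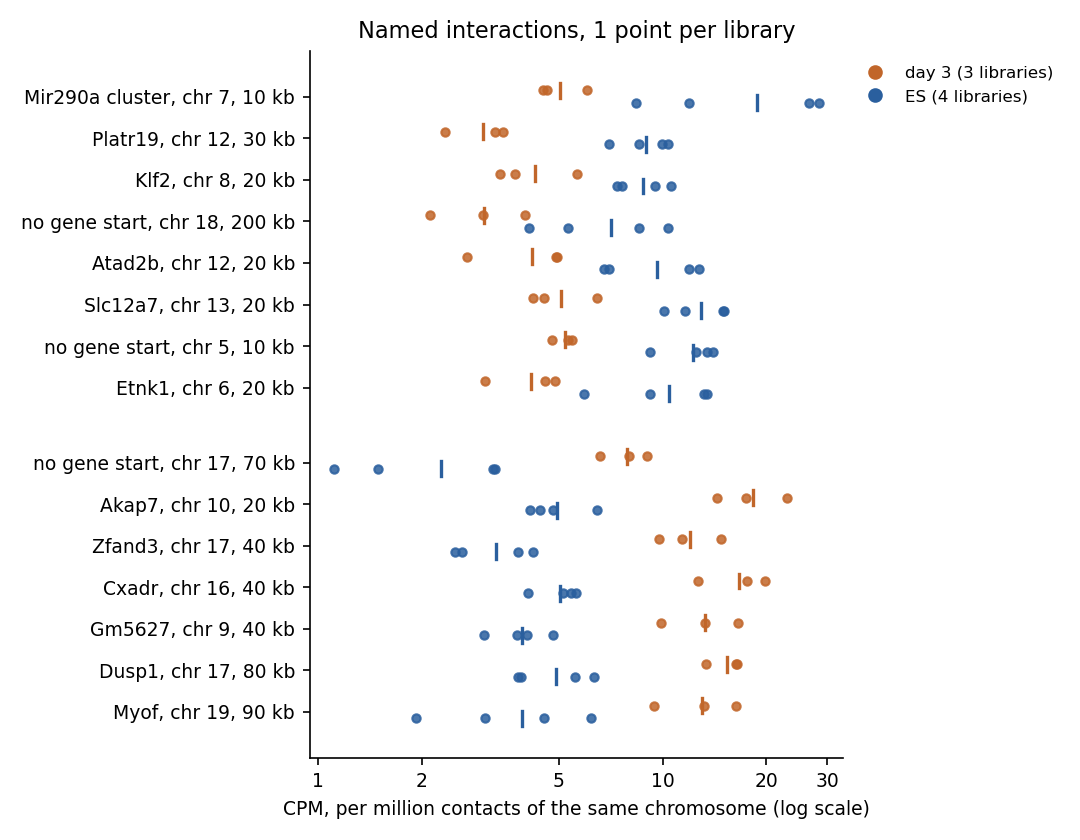
CPM relative to contacts of the same chromosome (x axis, log scale) of the 8 largest increases (top) and 7 of the largest decreases (bottom) in ES, labelled by a gene assigned to an anchor, the chromosome and the distance. Points are libraries, 3 of day 3 in orange and 4 of ES in blue, and vertical bars are means over libraries; in each row the groups do not overlap, which the choice of rows required.

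For 206 genes from 10 lists, starts were then examined where they could be placed. Placed were 24 of 30 fibroblast matrix genes, 16 of 18 mesenchymal factors, 21 of 24 epithelial genes and 17 of 18 cell cycle genes. The other lists, with all 30 pluripotency genes, were placed in full. Of 162 tested interactions at these starts, 10 (6.17%) were called higher and 11 (6.79%) lower in ES, against 3.02% and 4.18% of all tested interactions. The libraries of the groups did not overlap in 17 of these 21 calls, against 391 of all 532 calls (73.5%).

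Among pluripotency factors, Klf2, Pou5f1 and Fgf4 each met 1 higher call. Pou5f1 encodes OCT4, the central pluripotency factor. Its start bin (35500001 on chromosome 17) met the next bin, which holds the starts of Tcf19 and Cchcr1, with 8.76, 7.10 and 8.0 CPM at day 3 and 12.6, 11.9, 12.3 and 12.8 CPM in ES. The groups were separate, and the log2 change was 0.70 ± 0.21 (edgeR adjusted p = 0.0209). The call was lost with contact totals (adjusted p = 0.0524), with chromosome offsets (0.0869), in DESeq2 (0.389) and without any 1 day 3 replicate or ES replicates 3 and 4. Fgf4, an ES cell growth factor, had 8.24, 7.92 and 6.17 CPM at day 3 and 11.0, 6.85, 15.3 and 13.6 CPM in ES. These groups overlapped. The call (log2 0.78 ± 0.21, edgeR adjusted p = 0.00769) was lost without each day 3 replicate (edgeR adjusted p up to 0.172) and in DESeq2 (0.232). It was also lost without ES replicates 3 and 4, a fit that leaves 1 ES sample. Over all alternatives the log2 change ranged from 0.36 to 1.09.

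Klf9, a KLF relative with repressor activity, met 2 higher calls that ran 50 and 60 kb from its start bin (23140001 on chromosome 19) to bins without a RefSeq gene. The interaction with the bin at 23090001 had 7.80, 5.53 and 3.79 CPM at day 3 and 7.22, 15.2, 19.1 and 13.1 CPM in ES. The interaction with the bin at 23080001 had 3.12, 5.53 and 6.15 CPM at day 3 and 9.03, 6.10, 18 and 13.9 CPM in ES. In each, 1 ES library lay within the day 3 range. Log2 changes were 1.45 ± 0.26 and 1.22 ± 0.26 (edgeR adjusted p = 1.68e-05 and 0.000451), and both calls were lost without ES replicates 3 and 4 (0.0639 and 0.513). While these contacts rose, the number listed at the Klf9 start was 19 at day 3 and 10 in ES, 6 of them in both lists. With 1 cutoff in contacts per library these numbers were 2 at day 3 and 1 in ES.

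Epithelial genes went both ways. Cdh1 encodes E-cadherin, the main adhesion protein of epithelial and ES cells. Its start bin (106600001 on chromosome 8) met the bin at 106630001, inside the gene, with 3.01, 4.18 and 3.49 CPM at day 3 and 6.68, 6.70, 6.47 and 5.61 CPM in ES. The groups were separate, and the log2 change was 1.07 ± 0.23 (edgeR adjusted p = 0.000527). With chromosome offsets it was 0.78 and was not called (adjusted p = 0.0671), and DESeq2 did not call it (adjusted p = 0.0782). A second Cdh1 call, with the bin at 106580001, went from a log2 of 0.76 to 0.46 with chromosome offsets (adjusted p = 0.394). It was lost in 9 of 16 alternatives, among them DESeq2 (adjusted p = 0.349) and the fits without each day 3 replicate (edgeR adjusted p up to 0.123). The third, 10 kb from the start, was the smallest of the 21 calls at a log2 of 0.61 (edgeR adjusted p = 0.0442) and was looked up after its values were seen.

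Tjp1 encodes ZO-1, a scaffold of tight junctions. From the bin of a start inside the gene (65370001 on chromosome 7) an interaction ran 40 kb to another bin of the gene. It had 11.2, 10.2 and 8.26 CPM at day 3 and 4.51, 4.69, 3.01 and 3.37 CPM in ES. A 60 kb interaction from the same bin, also within the gene, had 7.86, 7.78 and 7.38 CPM at day 3 and 3.01, 3.60, 3.01 and 2.99 CPM in ES. Both ranges were separate. Listing required more than 3 CPM in replicates 1 and 2, and the ES values of the 60 kb interaction lay near that limit. Log2 changes were -1.27 ± 0.22 and -1.26 ± 0.24 (edgeR adjusted p = 9.97e-06 and 7.33e-05), and both were called in every alternative. Itgb4, the integrin subunit of hemidesmosomes, met 2 lower calls, at -1.0 ± 0.21 over 20 kb and -0.78 ± 0.21 over 10 kb (edgeR adjusted p = 0.000445 and 0.00906). The second was lost without day 3 replicate 2 or 3 and in DESeq2 (highest adjusted p = 0.125).

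Id1 and Id2, inhibitors of basic helix-loop-helix factors and targets of BMP signalling, each met a lower call. The Id1 interaction over 30 kb had 9.17, 9.05 and 6.91 CPM at day 3 and 5.72, 5.22, 4.12 and 4.13 CPM in ES. The Id2 interaction over 30 kb had 11.0, 8.22 and 8.14 CPM at day 3 and 5.96, 4.81, 4.76 and 3.54 CPM in ES. Neither overlapped between groups, with log2 changes of -0.85 ± 0.21 and -0.93 ± 0.23 (edgeR adjusted p = 0.00397 and 0.00319). Both were lost without ES replicates 3 and 4 and in DESeq2, and Id2 also without day 3 replicate 3 (highest adjusted p = 0.0972 for Id1 and 0.157 for Id2).

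In the LIF and STAT3 list, the pathway through which LIF sustains mouse ES cells, the calls went in opposite directions. Bcl3, a transcriptional cofactor, met a contact over 10 kb with 5.99, 5.62 and 5.17 CPM at day 3 and 9.03, 7.93, 12.3 and 13.1 CPM in ES. Its log2 change was 1.02 ± 0.21 (edgeR adjusted p = 0.000246), and it was lost without ES replicates 3 and 4 and in DESeq2 (highest adjusted p = 0.148). Stat3 met a contact over 20 kb with 7.41, 9.14 and 7.31 CPM at day 3 and 4.42, 7.13, 5.64 and 2.57 CPM in ES. Its log2 change was -0.75 ± 0.22 (edgeR adjusted p = 0.0165). The call was lost in DESeq2 (adjusted p = 0.37), and in edgeR with contact totals (0.0832) and with a replicate block (0.374). It was also lost without day 3 replicate 2 (edgeR adjusted p = 0.137) or 3 (0.122), and without ES replicates 3 and 4.

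Among the remaining lists, S100a4, a calcium-binding protein of fibroblasts, met 2 lower calls. Over 20 kb CPM was 6.21, 7.73 and 5.04 at day 3 and 3.8, 3.51, 3.23 and 2.87 in ES, at a log2 change of -1.07 ± 0.23 (edgeR adjusted p = 0.000434). The call was lost in DESeq2 (adjusted p = 0.0704). The bin also holds the starts of S100a3 and S100a5, and the neighbouring S100a6 bin had 3 tested interactions, all called lower. The second S100a4 call, at -0.70, was lost in 7 of 16 alternatives, among them chromosome offsets (edgeR adjusted p = 0.215) and DESeq2 (0.296). Ribosomal protein genes, which are expressed in all cells, met 3 calls. The bin that the authors' gene names give to Rpl3 (80090001 on chromosome 15) lies outside the RefSeq gene, which ends at 80083406, and holds Gm31134 and Syngr1 in RefSeq. It had 1 higher (log2 0.82, edgeR adjusted p = 0.00443) and 1 lower call (-0.73, 0.0443) with different partners, and Rpsa had 1 lower call (-0.69, 0.0234). Its lower call was lost without any 1 sample, the Rpsa call without any 1 day 3 replicate or ES replicates 3 and 4, and its higher call without day 3 replicate 1 and in DESeq2 (adjusted p = 0.0943).

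The number of listed interactions at gene starts gave a wider view, without a test, since each group has 1 list. Some starts were placed only by names in the TKO H3K27ac lists, and the effect of this placement on the counts was not tested. Of all 14365 gene starts with a listed interaction, 55.5% had more in ES and 30.9% had fewer. Of 26 pluripotency genes with an interaction, 22 had more in ES and 2 had fewer, and their sum went from 18 to 73. Fibroblast matrix genes had more in ES at 5 of 16 starts and fewer at 10, with a sum of 29 at day 3 and 18 in ES. Mesenchymal factors had more at 2 of 10 and fewer at 7, with sums of 37 and 18. AP-1 and immediate early genes had more at 2 of 13 and fewer at 7 (39 and 31), and TGF-beta and BMP genes more at 4 of 15 and fewer at 7 (38 and 24). With 1 cutoff in contacts per library these 5 lists kept their direction. In the LIF and STAT3 list 7 of 11 had more in ES and 3 fewer, but 2 and 2 with that cutoff. Epithelial genes had more at 10 of 17 starts and fewer at 4, and 11 and 1 of 17 with that cutoff, and KLF and SP genes more at 7 of 14 and fewer at 5. Cell cycle genes had more at 7 of 14 and fewer at 4, and ribosomal protein genes more at 6 of 19 and fewer at 4, and 9 and 3 of 15 with that cutoff.

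**Figure D5:**
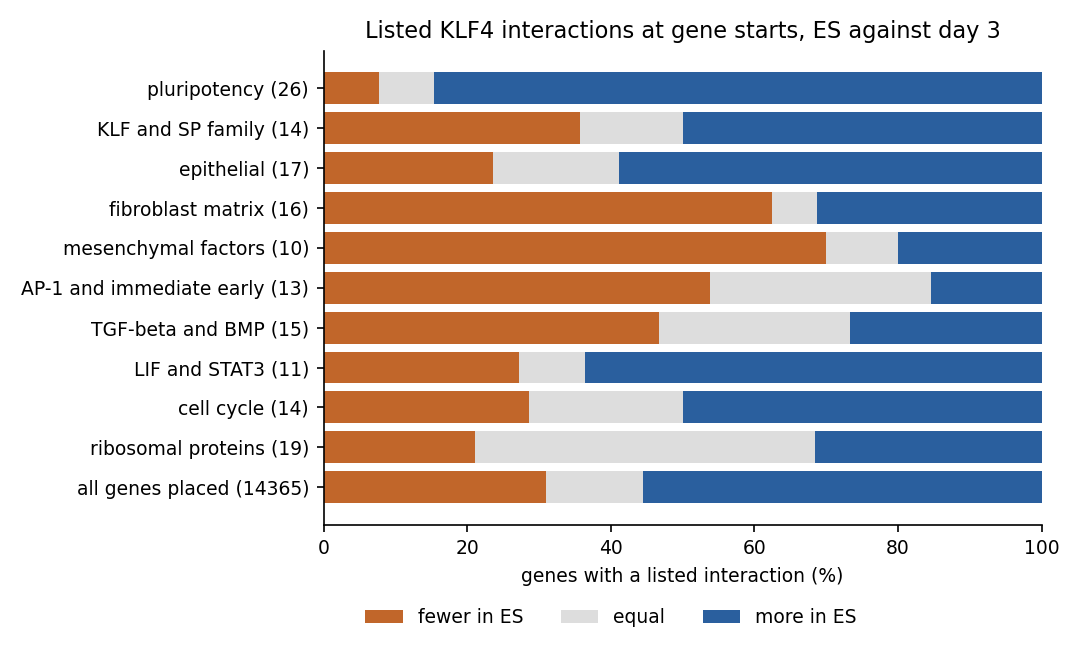
Percentage of genes (x axis) with fewer, equal or more listed KLF4 interactions in ES than at day 3, for genes with at least 1 listed interaction, whose number follows each list's name (y axis). Pluripotency genes had more in ES at 22 of 26 starts, and all placed genes at 55.5%.

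Pou5f1 and Fbxo15, an OCT4 target used as a reporter of reprogramming, each had 1 listed interaction at day 3 and 7 in ES. With 1 cutoff in contacts per library Pou5f1 had 0 and 4, and Fbxo15 had 1 and 2. Klf5, Nr5a2, Tdgf1 (a Nodal co-receptor), Dppa3, Dnmt3l (a cofactor of DNA methylation) and Tcl1 had 0 at day 3 and 3 in ES. With that cutoff each of these had 0 at day 3 and 1 to 3 in ES. The starts of Sox2, Esrrb, Tfcp2l1 and Lefty1 had 0 in both lists. Klf2 had 3 in each list, all shared. Fgf4 and Etv5 were the 2 with fewer in ES, at 5 and 4 for Fgf4 and 4 and 3 for Etv5.

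In the other direction, Runx1, a transcription factor active in fibroblasts and blood, had 11 interactions at day 3 and 2 in ES. Vim, the intermediate filament of mesenchymal cells, had 5 and 0, and Thbs2 and Tnc, matrix proteins, had 6 and 1 and 4 and 0. Prrx1, a limb mesenchyme factor, had 3 and 0. Tgfbr2, a TGF-beta receptor, had 5 and 0, and Ltbp1, which holds latent TGF-beta in the matrix, 6 and 0. With 1 cutoff in contacts per library Tgfbr2 still had 5 and 0, but Ltbp1 had 0 and 0 and Runx1 2 and 1. Vim and Prrx1 each had 3 and 0 with that cutoff, Tnc 2 and 0 and Thbs2 1 and 0. Bmpr1a, a BMP receptor, had 5 and 1, and 1 and 0 with that cutoff. The ligand gene Tgfb1 had 0 at day 3 and 5 in ES, and 0 and 1 with that cutoff. Matrix genes did not all go 1 way, since Sparc had 1 and 6, and Fn1 and Col1a1 each 0 and 3. With that cutoff Sparc had 1 and 4, Fn1 0 and 1 and Col1a1 0 and 0.

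Within the KLF and SP family, Klf3 and Klf7 had 3 and 0, whereas Klf1 and Klf15 had 1 and 4 and Sp1 had 2 and 5. With 1 cutoff in contacts per library Klf3 had 2 and 0 and Klf7 3 and 0. Klf1 then had 0 and 2, Klf15 1 and 2 and Sp1 2 and 2. Klf1 and Nfix lie on chromosome 8, and Nfix, a nuclear factor I gene, had 9 at day 3 and 5 in ES (5 and 3 with that cutoff). Of the epithelial genes, Krt18 had 2 and 7, Cldn6 had 3 and 7, and Tjp1 had 12 and 7. With 1 cutoff these were 1 and 3, 0 and 1, and 5 and 5. Rb1, the retinoblastoma tumour suppressor, had 6 and 0, and the cyclin genes Ccnb1 and Ccne2 had 0 and 4 and 0 and 3. With that cutoff Rb1 had 2 and 0, and Ccnb1 and Ccne2 each had 0 and 1. These counts have no replicate check.

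Bins whose number of interactions differed most were found with 1 cutoff in contacts per library. Of 24423 bins, 872 gained and 862 lost at least 3 interactions in ES. The largest loss was at the start of Emp1 (135360001 on chromosome 6), a membrane protein gene, with 13 interactions at day 3 and 2 in ES. A bin at 36400001 on chromosome 15 without a RefSeq gene had 9 and 0, and a bin at 83950001 on chromosome 17 had 8 and 0. Gains of 6 were seen at 119000001 and 117370001 on chromosome 4 (each 0 and 6, the second inside Rnf220), at 12810001 on chromosome 12 (1 and 7) and at 27160001 on chromosome 8 (0 and 6), inside Rab11fip1. The chromosome 12 bin is the partner of the Platr19 bin described above. In the H3K27ac lists the 4 bins that gained, in the order given, had 4, 0, 0 and 1 interactions in MEF and 17, 12, 16 and 8 in ES. Of the bins that lost, the Emp1 bin had 15 in MEF and 2 in ES, the chromosome 15 bin 1 and 2, and the chromosome 17 bin 12 and 9.

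The strongest interactions of 1 list without a counterpart within 1 bin, spanning 20 kb or more, were 4 of 1733 at day 3 and 4 of 1781 in ES. In ES, 2 of the 4 lay inside Esrrb, a nuclear receptor gene of the naive pluripotency network. They joined the bin at 86470001 on chromosome 12 to those at 86490001 and 86500001. The first had 13.2, 17.0, 20.2 and 19.7 CPM in ES replicates 1 to 4, and the second 9.85, 8.74, 21.7 and 23.7 CPM. In ES H3K27ac HiChIP they had 102 and 99.1 CPM, and they were not in the MEF list. A pair on chromosome 5 at 25530001 and 25550001, the first bin holding the start of 1700096K18Rik, had 5.85, 6.90, 17.3 and 20.1 CPM. In the second Esrrb pair and on chromosome 5, replicates 3 and 4 lay above replicates 1 and 2 by more than 2-fold.

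At day 3, a pair at 91010001 and 91030001 on chromosome 5 ran from Mthfd2l to the bin of Epgn, a growth factor of the EGF family, with 16.7, 14.7 and 10.4 CPM. A pair inside Ptprm, a receptor phosphatase of cell contacts, at 66720001 and 66740001 on chromosome 17 had 30.1, 21.5 and 17.3 CPM. The 3 remaining pairs, 2 of day 3 and 1 of ES, lay close to the start of chromosome 11 around Sfi1. The ES pair at 3150001 and 3190001 had 61.2, 72.0, 60.6 and 53.2 CPM. It was also in both H3K27ac lists and both Hi-C lists. The day 3 pair at 3170001 and 3190001, which shares an anchor with it, had 80.8, 97.3 and 99.1 CPM. That pair was in the day 6 KLF4 list and in the same H3K27ac and Hi-C lists, so neither pair was particular to 1 stage in these readouts.

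H3K27ac, a mark of active promoters and enhancers, was measured by HiChIP in MEF and ES cells and gave a readout that did not enter the KLF4 lists. Interactions of the day 3 list alone were in the MEF H3K27ac list for 39.2% and in the ES H3K27ac list for 29.3%. For the ES list alone the shares were 25.6% and 70.0%, and for interactions in both KLF4 lists 60.9% and 83.1%. Of the day 3 list alone, 45.8% (45.0 to 46.6) were in neither H3K27ac list, compared with 24.9% of ES alone and 9.50% of those in both. With 1 cutoff, tried after seeing the data, day 3 alone had 45.3% in MEF and 29.2% in ES, and ES alone 29.4% and 75.9%. Day 3 cells were not profiled for H3K27ac in these files, and the ES H3K27ac list is longer than that of MEF.

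The same readout was taken for called interactions. Of the 223 called higher in ES, 98.2% were in the ES H3K27ac list and 50.7% in the MEF list, and 0 were in the MEF list only. Of the 309 called lower, 71.5% were in the ES list and 76.4% in the MEF list, with 17.2% in the MEF list only. For interactions in both H3K27ac lists, the median log2 ES over MEF H3K27ac CPM was 1.27 (1.11 to 1.59 over pairs of libraries, 113 interactions) for those called higher. It was -0.01 (-0.16 to 0.10, 183 interactions) for those called lower and 0.36 (0.29 to 0.49, 3955 interactions) for all. H3K27ac was higher in ES at 96.5%, 49.7% and 70.7% of these. Of the named interactions, the Mir290a pair had 109 CPM in ES H3K27ac HiChIP, the Platr19 pair 40.6 and the Klf2 pair 49.2, and none of the 3 was in the MEF list. Named lower calls went both ways. The Dusp1 pair had 20.7 CPM in MEF and 9.09 in ES, and the Akap7 pair 9.60 and 5.15. The Cxadr pair was not in the MEF list and had 5.15 CPM in ES. The Itgb4 pair over 20 kb had 14.9 CPM in MEF and 15.1 in ES, and the Id2 pair 4.18 and 5.32.

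Hi-C, which uses no antibody, listed 44.1% of the interactions of day 3 alone in MEF and 45.1% in ES. For ES alone the shares were 46.1% and 61.4%. The day 6 KLF4 list, which is much shorter, held 6.69% of day 3 alone, 3.37% of ES alone and 20.3% of those in both, and 31.4% of interactions called lower against 19.7% of those called higher.

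Interactions of day 3 alone had fewer anchors at placed gene starts. Some genes were placed only by names in the TKO H3K27ac lists, and the effect of this placement on the shares was not tested. Neither anchor held a gene start in 53.4% of day 3 alone (52.6 to 54.2), 36.9% of ES alone and 29.9% of those in both. Both anchors held one in 9.13%, 15.9% and 19.9%. For calls, neither anchor held a start in 27.4% of those higher and 36.2% of those lower in ES. Promoters in anchors of higher calls held the GGGNGTG core in 41.5% (34.9 to 48.6, 195 promoters) and those of lower calls in 37.4% (31.4 to 43.9, 227 promoters), and these intervals overlap.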

How the data were processed

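KLF4 HiChIP lists of day 3 (3 libraries) and ES (4) were analysed. The authors aligned reads to mm10 with Bowtie2 2.2.3, per the submitters' processing notes; the contact caller is not given in the sources used here. Per the file headers, each deposited interaction has a raw count of contacts and a CPM per replicate, and 1 p-value and 1 FDR. The deposited CPM is relative to the contacts of the same chromosome, as count over CPM shows. All listed interactions passed the authors' p-value of under 0.1, and exceeded 3 CPM in replicates 1 and 2.

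Libraries of a group that agreed within sampling noise were summed. Counts of shared interactions were tested with edgeR 4.0.16 (quasi-likelihood, filterByExpr, TMM on contact totals, Benjamini-Hochberg) in R 4.3.3, and with DESeq2 1.42.0 as an alternative. This step had been tried on simulated counts. The single cutoff was 0.247 counts per M library contacts in replicates 1 and 2. Gene starts came from RefSeq's promoter table (GRCm38.p6). Genes missing there were placed by the authors' gene names, taken from the TKO H3K27ac lists, or by a RefSeq gene within 1 bin. Of 12695 genes named by the authors, 9381 were also in the promoter table, and 94.5% of these fell in the same bin. Of 47 list genes placed by the authors' names, 45 overlapped their RefSeq gene.

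Named were the 8 largest non-overlapping calls per direction, up to 20 calls at list genes, 4 strongest interactions per list alone, 4 bins per direction with the largest change, and list genes differing by 3 or more. The interactions, lists and rules were chosen with earlier results of these data known. Some named items are not reported here.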

Additional observations from a re-analysis of the deposited data

Results flagged for a closer look

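In 2 of 43 groups of 4 ES libraries, 1 library lay far from the others, where chance gives about 1 group in 20. For the Tjp1 interaction over 60 kb (65370001 and 65430001 on chromosome 7), ES replicate 2 had 3.60 CPM and the others 2.99 to 3.01, so the gap to the nearest was 0.970 of the range. For the interaction over 10 kb at the bin the authors name for Rpl3 (80090001 and 80100001 on chromosome 15), ES replicate 2 had 22.9 CPM and the others 15.4 to 16.5, a gap of 0.849 of the range. Replicate 2 was the shallowest ES library, at 51.9 M contacts, and the part of depth in these values was not tested.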

How the results depend on the processing

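Contact totals without TMM gave 284 calls, chromosome offsets 267, DESeq2 64, anchors at least 20 kb apart 342 and at least 50 kb apart 56; leaving out 1 sample in turn gave 135 to 687. The fit with a replicate block on replicates 1 to 3 gave 338 calls, against 438 without the block on the same 6 libraries. The labels do not pair these numbers, and deviations of same-numbered samples correlated at -0.05 to 0.02. Without chromosome X (515) or 8 (434), both chosen after seeing the data, the count moved by under 1.5 times. Fewer interactions were tested with minimum distances; the cause of the other changes was not tested. The share of day 3 interactions in ES was 49.9% within 1 bin, 34.8% at 6 CPM or more, 32.4% with 1 cutoff, 33.5% for 10000 interactions each and 17.3% at 50 kb or more. The long-range shares of day 3 alone and ES alone were 4.83 and 1.57% with 1 cutoff, 7.55 and 6.17% at 100 kb, and 25.7 and 19.0% where alone excluded neighbours within 1 bin. Of 571 values of the 35 named interactions under alternatives, 490 were called, 81 were not called in the same direction and 0 reversed. Counts per interaction, with a median of 14 in the shallowest libraries, limit single values.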

Other observations

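Some start bins outside the fixed lists met several calls, and were picked out after their values were seen. At Tubb2a, a tubulin gene (34070001 to 34080000 on chromosome 13), 4 of 9 tested interactions were called lower in ES and 0 higher. At Gnaq, a G protein subunit gene on chromosome 19, 3 of 9 were lower, and at the start of Zbtb39 on chromosome 10 all 3 tested were lower. Zscan10, a zinc-finger gene of ES cells (23600001 to 23610000 on chromosome 17), had 3 higher calls of 5 tested and 0 lower. The Adrb3 bin on chromosome 8 had 3 higher calls of 4 tested, on the chromosome whose share of contacts was larger in ES. In all, 23 bins met 3 or more calls. Calls that share a bin are not independent, and the share of such bins among all tested bins was not computed.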
